A study of Arabidopsis thaliana with 32 samples.

Results

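The difference between 2 responses to warmth was measured across all genes of Arabidopsis thaliana: the change in transcript level from 20°C to 27°C in hmr-22 minus the same change in the wild type, Col-0. It was taken from 16 of the 32 libraries of the series, 4 each of Col-0 at 20°C, Col-0 at 27°C, hmr-22 at 20°C, and hmr-22 at 27°C, and 19182 of 27655 listed genes had enough signal to be tested. Both genotypes are in the Col-0 background, and all seedlings were grown for 96 h in continuous red light at their temperature, so that the contrast is between seedlings raised at 2 temperatures and not a shift from one to the other. The allele hmr-22 is described by the study as a weak one that changes 1 amino acid in the transactivation domain of HEMERA (HMR). Each library came from RNA of pooled whole seedlings, so that fewer cells of a type and less RNA per cell cannot be told apart in any value below.

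HMR works in 2 places. In the nucleus, it acts downstream of the phytochrome light receptors and together with PIF4, a basic helix-loop-helix (bHLH) transcription factor that binds the G-box CACGTG and turns on auxin and growth genes when seedlings become warm. In plastids, the same protein, also called PTAC12, belongs to the plastid-encoded RNA polymerase (PEP), which transcribes the photosynthesis genes of the plastid genome, whereas a nuclear-encoded polymerase (NEP) transcribes a smaller set that includes accD, ycf2, and the genes for the PEP core itself.

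Levels are given as scaled FPKM, which is the deposited FPKM (fragments per kilobase of transcript, relative to all mapped fragments of the library) divided by a scaling factor of its library. Changes and differences are on the log2 scale after 0.25 was added, which understates the change of weakly expressed genes. A gene was called when its adjusted p was under 0.05 in limma, and values in series are for replicates 1 to 4 in order. Libraries from 20°C are called cool and those from 27°C warm.

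The gene that the mutation is in was nearly silent in the libraries labelled hmr-22. HMR (AT2G34640, chr2:14581835-14584797) had scaled FPKM of 21.005, 19.9, 19.2, and 16.1 in Col-0 at 20°C and 21.9, 23.8, 20.3, and 19.8 at 27°C. In the libraries labelled hmr-22, it had 0.487, 0.651, 1.11, and 0.168 at 20°C and 1.23, 1.59, 1.54, and 0.824 at 27°C. The label names an allele that the study describes as a substitution, and the source of this near absence was not tested, so that hmr-22 stands below for the libraries so labelled. The response of HMR itself did not differ past the threshold, with a difference of 0.78 (SE 0.37, adjusted p = 0.112).

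Depth was similar in all groups, at 11911243 to 15922753 mapped fragments per library, but what the fragments covered was not. Nuclear genes took 68.005 to 82.8% of them in cool and 91.9 to 92.97% in warm Col-0, and 35.2 to 60.96% and 64.4 to 74.7% in hmr-22. The scaling factors were 1.43 to 1.68 and 2.15 to 2.32 in Col-0, and 0.255 to 0.5399 and 0.5804 to 0.849 in hmr-22. For both measures, the genotypes did not overlap at either temperature (exact two-sided permutation test, p = 0.0286, the smallest that 4 against 4 can give, adjusted p = 0.0343 over 18 tests). Without scaling, the median over all genes moved by -1.50 for hmr-22 against Col-0 at 20°C and by -1.40 at 27°C, but only by 0.16 for the difference of the responses. A level of hmr-22 against Col-0 at 1 temperature is therefore relative to these factors, whereas the response difference depends on them far less. The tissue label, seedlings, was checked with marker genes: the summed scaled FPKM of 5 genes of green tissue was 19233 to 21395 and 12314 to 15047 in Col-0 and 84447 to 113190 and 21657 to 47313 in hmr-22. LHCB1.3 alone gave 59237 to 83660 of the sum in cool hmr-22, whereas RBCS2B overlapped between the genotypes at 20°C and was lower in hmr-22 at 27°C (769 to 1624 against 1899.7 to 2152 in Col-0). The sum of 5 root genes was 77.6 to 107 and 8.12 to 19.3 in Col-0, but 9.71 to 21.3 and 0 to 1.57 in hmr-22.

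**Figure D1:**
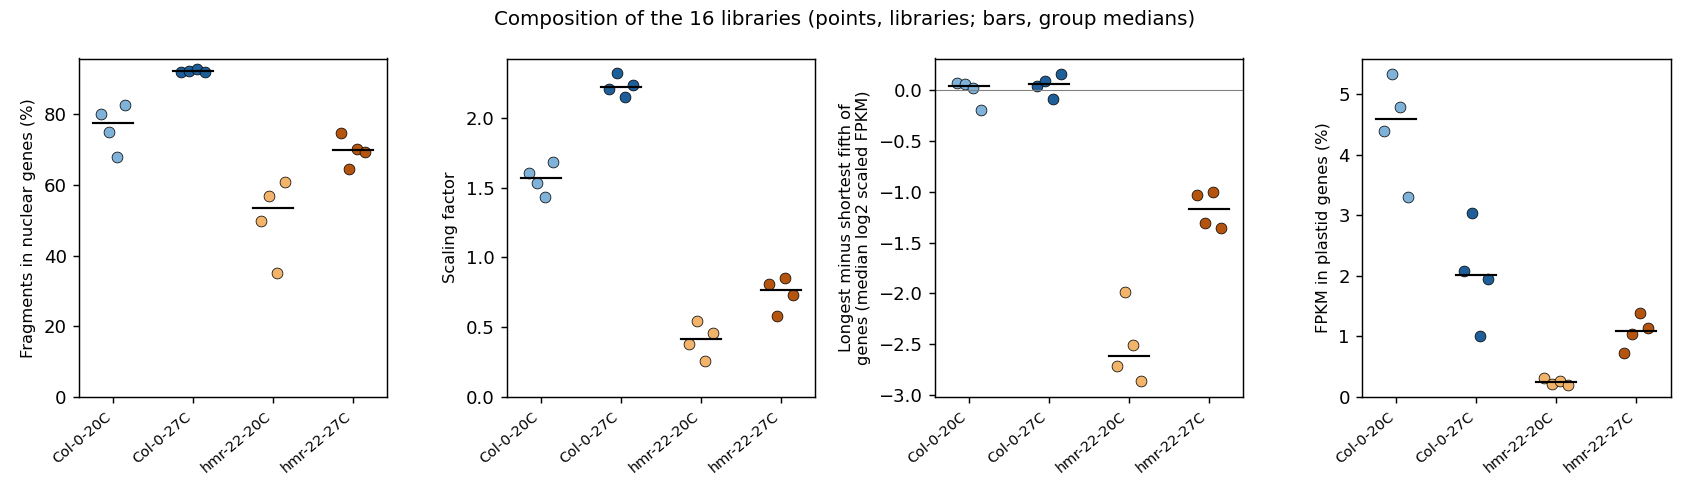
Each point is 1 of the 16 libraries and each bar a group median, for the share of fragments in nuclear genes (%), the scaling factor, the median log2 level of the longest genes minus that of the shortest (outer bins of 5 by exon length), and the share of FPKM in plastid genes (%). The hmr-22 libraries lie below Col-0 in the first 3 panels at both temperatures, and hmr-22 at 20°C lies farthest out.

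Long and short transcripts behaved differently in hmr-22, and this touches every count below. Nuclear genes were put in 5 bins of equal size by exon length. The median level in the longest bin, relative to the shortest, was -0.1896 to 0.0748 (log2) in cool and -0.0849 to 0.161 in warm Col-0, against -2.86 to -1.98 in cool and -1.35 to -0.998 in warm hmr-22. Genes with exons of 102 to 1160 nt had a median response difference of -0.26, and genes of 2588 to 16614 nt one of 0.72. Col-0 showed no such slope, since its median warm change was -0.09 in the shortest and 0.05 in the longest bin. Of the shortest bin, 10.2% were called higher and 24.8% lower in hmr-22, against 44.7% and 4.49% of the longest. The part of this slope in the counts was measured in 1 way. The difference was computed again after each library was adjusted for exon length, a setting chosen after the data were seen. That value is given for some of the results below. Organelle genes had no exon length, so that their gene span was used with a curve fitted on nuclear genes alone. Their adjusted values therefore extend a nuclear curve to organelle RNA.

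**Figure D2:**
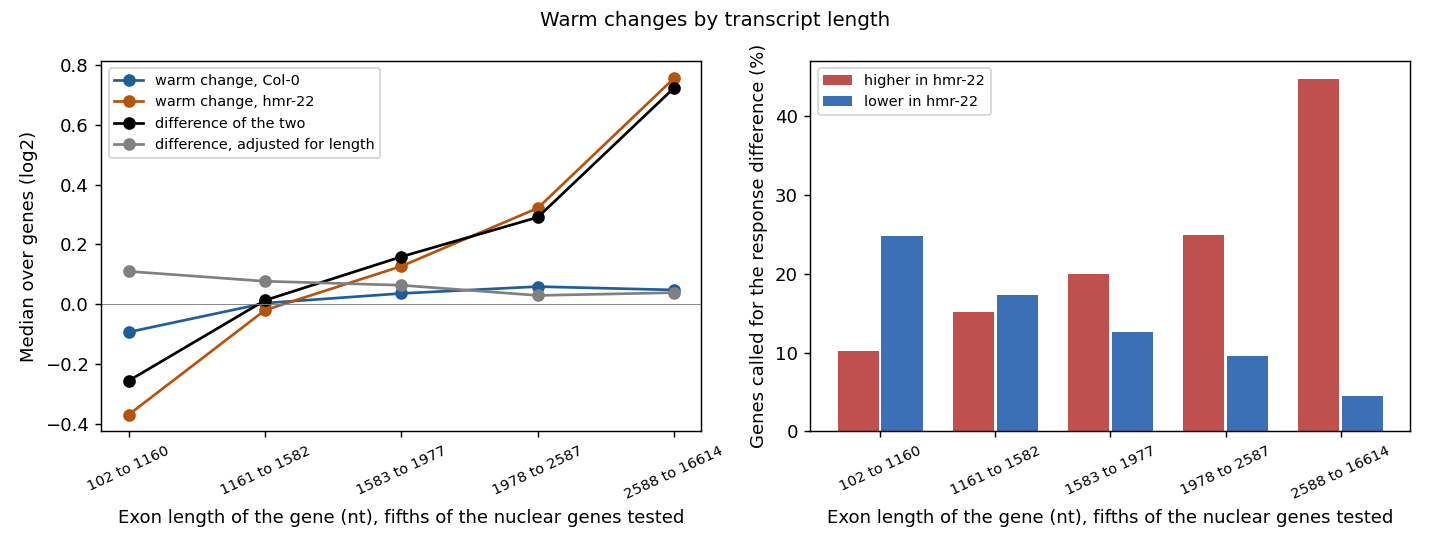
The left plot shows the median warm change (log2) in Col-0 and in hmr-22 and their difference, before and after adjustment for length, over 5 bins of the nuclear genes by exon length in nt, and the right plot shows the share of genes called in each bin (%). The medians of hmr-22 and of the difference climb from below 0 in the shortest bin to 0.76 and 0.72 in the longest, whereas Col-0 and the adjusted difference stay near 0.

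The response to warmth differed between the genotypes for a large share of genes. It was higher in hmr-22 for 4471 genes (23.3% of those tested) and lower for 2624 (13.7%), with a median over all genes of 0.19. At the thresholds that the study used for changes with temperature (adjusted p under 0.001, at least 2-fold, largest group mean FPKM over 1), 1325 genes (6.91%) were higher and 834 (4.35%) lower. The split between higher and lower moved with the scaling, to 4516 higher and 1913 lower without any and to 3603 and 3195 when the factors were median ratios. It also moved when single controls were left out: without replicate 3 of Col-0 at 20°C or any 1 library of Col-0 at 27°C, 2985 to 3092 genes were higher and 2748 to 2874 lower, and 666 to 708 were higher at the study's thresholds. After adjustment for length, it was 3424 and 2908, of which 2929 and 2177 were in the original calls with the same sign. Within Col-0, 1219 genes (6.35%) rose with warmth and 2225 (11.6%) fell, whereas in hmr-22, 6349 (33.1%) rose and 4269 (22.3%) fell. At 20°C, hmr-22 was above Col-0 for 33.2% of genes and below for 42%, and at 27°C for 35.1% and 36.9%. The shares over all genes in this paragraph are the background for the counts of each list below.

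Most response differences were of genes whose warm change was called in hmr-22 and not called in Col-0, which is what alone stands for here. Both genotypes were given the same SE although replicates spread more in hmr-22, so that calls within each are not on equal terms. Of the 4471 genes with a higher response, 3428 rose in hmr-22 alone, 438 fell in Col-0 alone, 303 fell in Col-0 and rose in hmr-22, and 123 rose in both. Of the 2624 with a lower response, 1727 fell in hmr-22 alone, 322 rose in Col-0 alone, 194 rose in Col-0 and fell in hmr-22, and 269 fell in both. The genotypes differed at both temperatures with the same sign for 2154 of the genes with a higher response and 1223 of those with a lower one, and switched sign between the temperatures for 325 and 271.

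**Figure D3:**
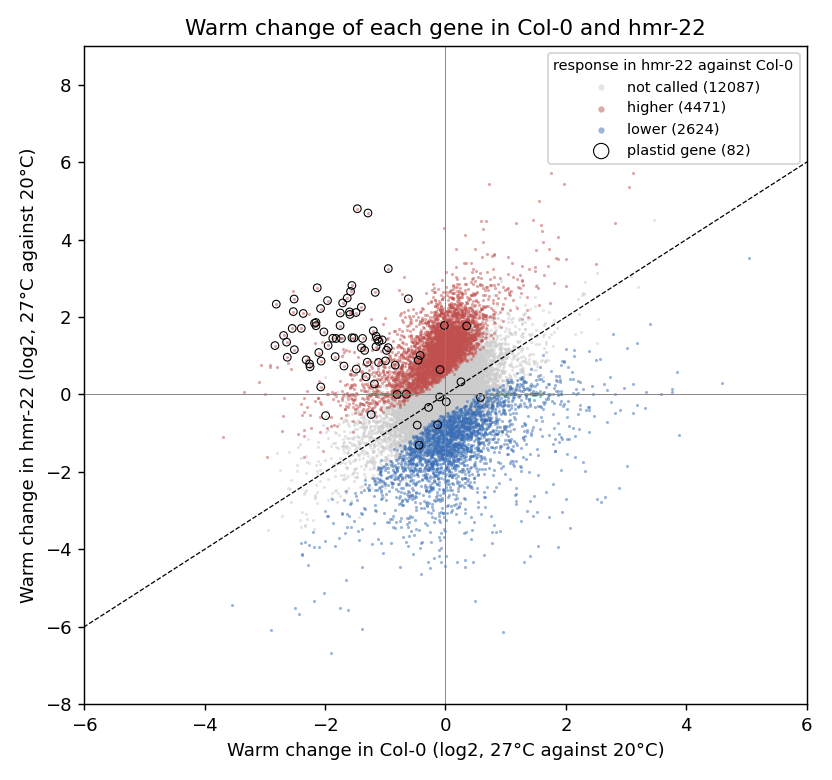
Each point is a gene tested, placed by its warm change (log2, 27°C against 20°C) in Col-0 and in hmr-22, colored by the call of the response difference, with the 82 plastid genes tested circled and a dashed line where both changes are equal. Genes called higher (4471, red) lie above the dashed line and genes called lower (2624, blue) below it, and many plastid genes lie in the upper left, where Col-0 fell and hmr-22 rose.

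Genes of cell elongation had lower responses, and the SAUR genes had the lowest median of the lists. Of 25 SAUR genes tested, which encode small auxin-induced proteins that promote cell expansion, 24 were lower and 0 higher, with a median of -2.896 (all genes 0.19). In Col-0, 18 of them rose with warmth and 0 fell, whereas in hmr-22, 15 fell and 0 rose. Many SAUR genes are short (median exon length 760 nt), and after adjustment for length, 21 were lower with a median of -2.31. SAUR24 (AT5G18080) had scaled FPKM of 0.336, 1.04, 1.03, and 0.812 in Col-0 at 20°C and 3.08, 2.54, 3.92, and 2.82 at 27°C. In hmr-22, SAUR24 had 3.51, 1.95, 3.23, and 2.24 at 20°C and 0, 0.1896, 0.142, and 0 at 27°C. The hmr-22 libraries were thus above all Col-0 libraries at 20°C (log2 difference 1.53, but -0.13 without scaling) and below all of them at 27°C, and the difference of the responses was -4.89 (SE 0.41, adjusted p = 2.17e-07). SAUR19, SAUR20, and SAUR24 are near-identical neighbors, among which reads may be split. SAUR1 (-5.21, SE 0.64) and SAUR29 (-4.56, SE 0.49) had differences of the same kind.

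The auxin signaling genes Aux/IAA, which encode repressors that auxin removes, moved the same way in part. Of 22 tested, 10 were lower (45.5%, against 13.7% over all genes) and 0 higher (median -0.74), the same counts as after adjustment for length. IAA19 (AT3G15540, chr3:5264001-5265695), a target of PIF4, had 2.87, 2.87, 2.79, and 2.71 scaled FPKM in Col-0 at 20°C and 7.83, 9.04, 11.4, and 10.03 at 27°C. In hmr-22, IAA19 had 2.51, 2.69, 3.14, and 2.08 at 20°C and 0.0846, 0.705, 0.0882, and 0.2999 at 27°C. It overlapped between the genotypes at 20°C and was lower in every hmr-22 library at 27°C, with a response difference of -4.19 (SE 0.38, adjusted p = 4.43e-07). IAA29 (AT4G32280), another target, was weakly expressed, at 0.164 to 0.427 in cool Col-0 and 1.01 to 1.57 in warm Col-0, against 0 to 0.846 and 0 to 0.1999 in hmr-22. Its difference of -2.37 (SE 0.53, adjusted p = 0.00189) therefore rests on few fragments. IAA2 (-2.77, SE 0.19) and IAA6 (-2.72, SE 0.34) were also lower. IAA6 was listed at 0 in every warm hmr-22 library and passed the expression filter only through warm Col-0, so that a lower response was built into its selection.

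Among 15 genes for auxin synthesis and inactivation, 13 were tested, and 5 were lower and 1 higher. These shares are 38.5% and 7.69%, against 13.7% and 23.3% over all genes. YUC8 (AT4G28720), an enzyme of the last step of auxin synthesis, had 1.36, 1.24, 0.847, and 1.38 in Col-0 at 20°C and 1.78, 2.204, 2.45, and 2.15 at 27°C. In hmr-22, YUC8 had 2.14, 3.13, 2.83, and 1.52 at 20°C and 1.18, 1.37, 1.797, and 1.28 at 27°C, so that it rose with warmth in Col-0 and fell in hmr-22 (by -0.65, but 0.12 without scaling). The response difference of YUC8 was -1.38 (SE 0.32, adjusted p = 0.0027). The 4 other lower members, GH3.3 (-2.03), GH3.17 (-1.36), GH3.6 (-1.23), and GH3.5 (-1.19), conjugate auxin to amino acids, and the higher one, DAO1 (1.07), oxidizes it. DAO1 lost significance in 6 of 29 other settings (adjusted p up to 0.0868), and the higher count of this list was 0 to 2 over the settings.

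PIF, shade, and growth bHLH genes were lower in 15 of 22 and higher in 0 (median -1.58), with 15 lower after adjustment for length. PIF4 (AT2G43010) was not among them. It had 5.85, 5.57, 4.57, and 3.27 in Col-0 at 20°C and 11.1, 9.45, 11.4, and 11.9 at 27°C, and 6.64, 13.5, 12.6, and 6.89 and 15.6, 16.4, 14.1, and 16.7 in hmr-22. PIF4 thus rose with warmth in both genotypes, and its difference was -0.45 (SE 0.31, adjusted p = 0.266). After adjustment for length, the difference was -0.87 (adjusted p = 0.0252), and the change in hmr-22 was 0.26 (adjusted p = 0.282), no longer past the threshold. BEE1 (AT1G18400), a bHLH factor of brassinosteroid responses, had 0.846 to 1.14 in cool Col-0 and 3.84 to 4.34 in warm Col-0, against 0.375 to 1.37 and 0 to 0.222 in hmr-22. All hmr-22 libraries lay under all Col-0 libraries at 27°C, and the BEE1 difference was -3.28 (SE 0.41, adjusted p = 8.83e-06). BHLH63, also called CIB1 (AT4G34530), a bHLH partner of the blue light receptor cryptochrome, had 5.95, 6.25, 5.83, and 6.25 in Col-0 at 27°C, but was listed at 0 in 3 of 4 hmr-22 libraries at 27°C. Its levels at 20°C were 0.343 to 0.9405 in Col-0 and 0.535 to 3.74 in hmr-22, and its difference of -5.28 (SE 0.58) depends on the added 0.25. PKS4 (AT5G04190), which acts in phototropism and phytochrome signaling, was above Col-0 in hmr-22 at both temperatures. It had 0.2897 to 0.438 and 1.43 to 2.01 in Col-0 and 4.13 to 7.67 and 2.35 to 3.48 in hmr-22, so that its difference of -2.68 (SE 0.295, adjusted p = 2.84e-06) joined a rise in Col-0 with a fall in hmr-22. The PKS4 difference between the genotypes at 27°C was 0.66 (log2) with scaling and -0.796 without, and its change in hmr-22 was -1.08 and -0.23.

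IAA19 and BEE1 hold a G-box in the 250 bases before their start, and their promoters are shown here because they rose with warmth in Col-0, fell in hmr-22, and carry the letters that PIF4 is known to bind. The windows are from the TAIR10.1 assembly in RefSeq, whose gene coordinates match the file, are given 5′ to 3′ on the strand of the gene, and have the G-box in capitals.
IAA19, chr3:5263751-5264000, plus strand: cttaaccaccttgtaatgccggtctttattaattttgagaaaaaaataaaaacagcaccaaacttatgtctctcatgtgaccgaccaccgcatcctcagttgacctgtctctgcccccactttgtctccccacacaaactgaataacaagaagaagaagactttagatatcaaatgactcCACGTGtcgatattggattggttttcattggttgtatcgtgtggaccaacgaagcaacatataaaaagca
BEE1, chr1:6331148-6331397, plus strand: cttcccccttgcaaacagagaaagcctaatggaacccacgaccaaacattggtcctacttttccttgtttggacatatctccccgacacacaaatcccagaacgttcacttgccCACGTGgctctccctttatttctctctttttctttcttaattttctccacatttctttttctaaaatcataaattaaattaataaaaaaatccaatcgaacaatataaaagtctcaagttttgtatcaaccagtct
The first base of the G-box lies 70 bases before the IAA19 start and 136 bases before that of BEE1. The letters CACGTG, which read the same on both strands, were in 7.49% of such windows of all nuclear genes tested, in 8.07% of those with a higher response, and in 7.13% of those with a lower one. Of the 194 genes that rose in Col-0 and fell in hmr-22, 13 held it (6.7%), and of the 322 that rose in Col-0 alone, 28 (8.7%). None of the 25 SAUR and none of the 21 expansin and XTH windows held it. These shares describe letters in 1 short window and say nothing of binding elsewhere.

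Wall-loosening genes were lower in part. Of 21 expansin and XTH genes, whose products loosen or remodel the cell wall, 11 were lower and 2 higher (median -1.36). These shares are 52.4% and 9.52%, against 13.7% and 23.3% over all genes. XTH17 (AT1G65310) had 9.06, 9.17, 9.35, and 11.4 in Col-0 at 20°C and 29.3, 27.7, 53.2, and 47.8 at 27°C. In hmr-22, XTH17 had 4.89, 3.82, 5.57, and 2.68 at 20°C and 0, 1.43, 0.143, and 0.243 at 27°C, under every Col-0 library of the same temperature. Its response difference was -4.96 (SE 0.57, adjusted p = 4.37e-06). EXPA8 (AT2G40610) had 8.28, 8.46, 14.003, and 10.9 in Col-0 at 20°C and 23.2, 22.7, 26.9, and 26.002 at 27°C. In hmr-22, EXPA8 had 110.0, 80.7, 106, and 107 at 20°C and 5.74, 9.94, 13.04, and 14.8 at 27°C, a fall from above all Col-0 libraries to below them, with a difference of -4.51 (SE 0.32, adjusted p = 8.14e-08). EXPA3 (-3.597, SE 0.27) and XTH4 (-3.16, SE 0.25) were also lower. The 2 higher members were XTH18 (1.61, SE 0.401) and XTH24 (AT4G30270). XTH24 rose with warmth in both genotypes, and had 13.2 to 16.4 at 20°C and 40.7 to 80.03 at 27°C in Col-0, against 286 to 380.3 and 1979 to 3226 in hmr-22. Its difference of 0.797 (SE 0.27, adjusted p = 0.0296) lost significance in 12 of 29 other settings, where its adjusted p reached 0.229.

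Outside these lists, among genes that have a symbol, pass the study's thresholds, and do not overlap between the genotypes at one temperature, PCR3, GASA6, PME16, and LTP10 were among the 12 largest lower responses, and all were above Col-0 in cool hmr-22. PCR3 (AT5G35525), of a family of small membrane proteins linked to metal resistance, had 1.27, 1.03, 2.25, and 2.25 in Col-0 at 20°C and 2.04, 1.46, 3.102, and 3.38 at 27°C. In hmr-22, PCR3 had 175, 91.1, 237, and 163 at 20°C and 2.11, 5.204, 4.27, and 3.87 at 27°C. Only hmr-22 at 20°C stood apart, and the difference was -5.82 (SE 0.45, adjusted p = 1.12e-07). GASA6 (AT1G74670), a small gibberellin-regulated protein of growth, had 12.8, 10.1, 20.6, and 25.2 in Col-0 at 20°C and 64.001, 64.9, 84.02, and 62.2 at 27°C. In hmr-22, GASA6 had 247, 197, 190.4, and 255 at 20°C and 16.4, 14.6, 27.8, and 23.1 at 27°C, so that the order of the genotypes switched, and its difference was -5.52 (SE 0.34, adjusted p = 1.81e-08). PME16 (AT2G43050), a pectin methylesterase, switched likewise, with 1.199 to 2.29 at 20°C and 10.7 to 19.5 at 27°C in Col-0, against 28.3 to 29.4 and 6.09 to 9.202 in hmr-22, and with a difference of -4.86 (SE 0.299, adjusted p = 1.81e-08). LTP10 (-4.41, SE 0.33), a lipid transfer protein, switched order too. For GASA6, PME16, and EXPA8, this switch also passed the threshold at both temperatures without scaling, whereas LTP10 then differed by 0.49 (adjusted p = 0.0706) at 20°C.

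Of 12 genes named by the study, 6 were lower and 4 higher. Since the study took ST2A, APD7, ARGOS, RING, SCPL31, and MES18 as examples from the same libraries, the counts are not independent evidence. ARGOS (AT3G59900), a regulator of organ size, had 0.825 to 1.82 in cool Col-0 and 4.29 to 5.29 in warm Col-0, and 2.24 to 4.02 and 0.626 to 1.47 in hmr-22. The genotypes switched order without overlap, although the difference at 20°C was -0.59 rather than 1.13 without scaling, and the ARGOS difference was -3.06 (SE 0.37, adjusted p = 7.32e-06). ST2A (AT5G07010), a jasmonate sulfotransferase, had 0.425, 0.309, 0.594, and 0.3297 in Col-0 at 20°C and 2.46, 3.53, 4.74, and 6.77 at 27°C, but 2.28, 3.59, 3.41, and 4.53 and 3.94, 3.47, 5.46, and 6.41 in hmr-22. Its level in hmr-22 at 20°C was thus already in the range of warm Col-0, and its difference was -2.28 (SE 0.397, adjusted p = 0.000241). APD7 was lower (-1.600, SE 0.41). The repressed examples SCPL31 (2.57, SE 0.35), MES18 (1.72, SE 0.49), and RING (1.23, SE 0.405) were higher, and RING lost significance in 7 of 29 other settings and MES18 in 2. MED14, described next, was the other higher one, and HMR and PIF4 were not called. SCPL31 was listed at 0 in 3 of 4 hmr-22 libraries at 20°C, so that its value depends on the added 0.25. MES18 had 2.40 to 5.88 in cool Col-0 and 0.978 to 2.50 in warm Col-0. In hmr-22, MES18 had only 0 to 0.349 and 0.118 to 0.341, so that a fall could hardly be seen.

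MED14 (AT3G04740), a subunit of the Mediator complex that links transcription factors to RNA polymerase II, had 3.74, 4.11, 3.48, and 3.34 in Col-0 at 20°C and 3.65, 3.81, 3.74, and 4.32 at 27°C. In hmr-22, MED14 had 1.54, 3.62, 4.24, and 2.86 at 20°C and 9.67, 10.9, 8.75, and 5.999 at 27°C. The genotypes overlapped at 20°C and hmr-22 was above at 27°C, with a response difference of 1.43 (SE 0.33, adjusted p = 0.0027). Both its genotype levels and its difference depend on the processing. In deposited FPKM, MED14 was 5.73 ± 0.575 in Col-0 and 1.23 ± 0.568 in hmr-22 at 20°C, and 8.65 ± 0.782 and 6.48 ± 1.53 at 27°C (mean ± SD, n = 4). Its exons span 5588 nt, and after adjustment for length, its difference was 0.28 (adjusted p = 0.505). Over 19 Mediator subunits, 9 were higher (47.4%, against 23.3% over all genes) and 1, MED6 (-0.69), was lower. Only 2 were higher after that adjustment, when MED5A (-1.25) rather than MED6 was lower. CDK8 (1.53, adjusted 1.36) and MED17 (1.32, adjusted 1.02) were the 2 that were called higher in both settings, whereas MED12 went from 1.47 to 0.02.

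Nuclear genes for light harvesting and Rubisco were lower in 16 of 22 and higher in 0 (median -1.77). Their median warm change in Col-0 was -0.02, whereas 21 fell in hmr-22 (median -1.26), where 22.3% of all genes fell. Without scaling, these medians were 0.498 and -0.36, and 14 members had a lower response and 1 a higher one. After adjustment for length, 14 were lower and 0 higher (median -1.63). LHCB3 (AT5G54270), a light-harvesting protein of photosystem II, had 1054, 779, 939, and 643 in Col-0 at 20°C and 1383, 1174, 1469, and 1286 at 27°C. In hmr-22, LHCB3 had 12722, 9153, 11296, and 12181 at 20°C and 1739, 2013, 907, and 1576 at 27°C. It was thus far above Col-0 at 20°C and overlapped with it at 27°C, with a difference of -3.57 (SE 0.29, adjusted p = 1.95e-07). LHCB2.3 (AT3G27690), of the same antenna, had 57.8 to 124 and 109 to 142 in Col-0 and 682 to 914 and 124 to 238 in hmr-22, with a difference of -2.63 (SE 0.32). LHCB1.2 (-2.86, SE 0.35) and LHCB2.2 (-2.33, SE 0.33) were lower as well, although the LHCB1 and LHCB2 genes are close copies among which reads may be split. Photosystem subunits encoded in the nucleus were lower in 11 of 21 and higher in 0 (median -0.58), among them PSAH2 (-1.497) and PSBW (-1.47). Without scaling, 6 were lower and 2 higher. After adjustment for length, 8 were lower and 1 higher (median -0.20). The summed markers of green tissue, which are themselves light-harvesting and Rubisco genes and mostly LHCB1.3 in cool hmr-22, move with these genes, at 84447 to 113190 scaled FPKM in hmr-22 at 20°C against 21657 to 47313 at 27°C, and their part in the result was not tested. The promoter window of LHCB2.3 is shown because it is the member with the G-box and a large difference, in the format used for IAA19.
LHCB2.3, chr3:10255656-10255905, plus strand: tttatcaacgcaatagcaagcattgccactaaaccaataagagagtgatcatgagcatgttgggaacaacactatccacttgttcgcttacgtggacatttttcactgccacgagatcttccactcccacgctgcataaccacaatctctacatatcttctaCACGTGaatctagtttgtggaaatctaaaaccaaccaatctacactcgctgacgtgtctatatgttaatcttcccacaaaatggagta
Of the 22 light-harvesting and Rubisco windows, 5 held the G-box (22.7%, against 7.49% of all tested).

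Genes of the plastid genome behaved in the opposite way and made up most of the largest higher responses. Of 82 plastid genes tested, 65 were higher and 0 lower (median 2.997), and 55 fell with warmth in Col-0 whereas 51 rose in hmr-22. The median at 20°C was -3.62 relative to Col-0 and at 27°C -0.49. Without scaling, these medians were -5.52 and -2.08, and the median response difference was 3.12. After adjustment for length, with the curve fitted on nuclear genes alone, 69 were higher and 1 lower (median 3.59). The libraries were made with a poly(A) selection kit, so that these levels are of the plastid RNA that passed it.

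PEP-transcribed genes were higher in 19 of 21 tested (median 3.99), and NEP-transcribed genes in 7 of 10 (median 2.31), with none lower in either list. After adjustment for length, 20 PEP-transcribed genes were higher and 0 lower (median 4.355), and 8 NEP-transcribed genes were higher and 1 lower (median 1.63). psaA (ATCG00350), a core protein of photosystem I, had 721, 870.4, 821, and 461 in Col-0 at 20°C and 125, 208, 65.3, and 131 at 27°C. In hmr-22, psaA had 58.8, 52.4, 73.4, and 45.4 at 20°C and 193, 459, 378, and 289 at 27°C, under every Col-0 library at 20°C and overlapping them at 27°C. The response difference of psaA was 4.98 (SE 0.43, adjusted p = 2.31e-07). ATPB (ATCG00480), the beta subunit of the plastid ATP synthase, had 788, 969.5, 762, and 560.2 and 163, 270.0, 112, and 209 in Col-0 at the respective temperatures. In hmr-22, ATPB had 25.6, 31.8, 46.3, and 21.1 and 122, 125, 129.7, and 194, with a difference of 4.29 (SE 0.37, adjusted p = 2.31e-07). psbZ (ATCG00300), of photosystem II, had the largest value among all called genes with a symbol, 6.26 (SE 0.95, adjusted p = 7.02e-05), but it was listed at 0 in 3 of 4 hmr-22 libraries at 20°C and replicate 3 stood out at 27°C (4.07, 5.65, 37.7, and 9.08). NDHI (ATCG01090), of the plastid NAD(P)H dehydrogenase, followed with 5.97 (SE 0.73, adjusted p = 7.57e-06), and its level in hmr-22 was 0 to 1.05 at 20°C and 8.23 to 30.02 at 27°C. Among NEP genes, accD (ATCG00500), a subunit of acetyl-CoA carboxylase, had 32.9, 37.4, 33.5, and 22.9 and 7.98, 20.3, 4.82, and 13.4 in Col-0. In hmr-22, accD had 2.54, 2.59, 2.16, and 2.27 and 8.7999, 7.69, 17.2, and 13.9, with a difference of 3.73 (SE 0.46, adjusted p = 8.57e-06). Of the 12 largest higher responses with a symbol, 11 were plastid genes, among them also psbH (5.14), ATPA (4.88), and psaB (4.67), and the other was TIP3-1, described with the seed genes. The genotype order of psaA at 27°C depended on the scaling, since hmr-22 was 1.36 above Col-0 with it and -0.24 without it.

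The nuclear genes for PEP-associated proteins and for sigma factors, which bring PEP to its promoters, were listed together with SCA3, an NEP gene. The genes of this list were higher in 14 of 22 and lower in 0 (median 1.096). After adjustment for length, 10 were higher, and with quantile normalization 8 were. They were below Col-0 at 20°C in 21 of 22 and at 27°C in 18. In Col-0, 0 rose and 2 fell with warmth, and in hmr-22, 17 rose. FLN1 (AT3G54090), a fructokinase-like protein of the PEP complex, had 18.6, 20.4, 15.5, and 16.7 in Col-0 at 20°C and 20.6, 20.6, 19.1, and 19.4 at 27°C. In hmr-22, FLN1 had 0.0978, 0.863, 0, and 0.304 at 20°C and 6.68, 5.36, 5.92, and 7.18 at 27°C, below every Col-0 library at both, with a difference of 3.59 (SE 0.42, adjusted p = 5.53e-06). SCA3 (AT2G24120), the NEP of the plastid itself, had 7.09 to 10.9 and 8.396 to 11.9 in Col-0, but 0 to 0.2303 and 2.34 to 3.39 in hmr-22. Its difference of 2.797 (SE 0.31, adjusted p = 3.37e-06) was 1.998 after adjustment for length. MURE (2.56, SE 0.36) and PTAC10 (1.97, SE 0.46), both PEP-associated, were also higher. Of 21 genes for chlorophyll synthesis, 5 were higher (CHLH 1.23, CHLM 1.199, CHLG 0.89, HEMA2 0.76, and CHLI1 0.73) and 2 lower (PORB -0.67 and CAO -0.63), but the lower count ranged from 0 to 6 over the other settings. These shares, 23.8% and 9.52%, are near or under the 23.3% and 13.7% over all genes. After adjustment for length, CHLH (0.22, adjusted p = 0.436) and HEMA2 (0.52, adjusted p = 0.117) were no longer called, which left 3 higher.

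**Figure D4:**
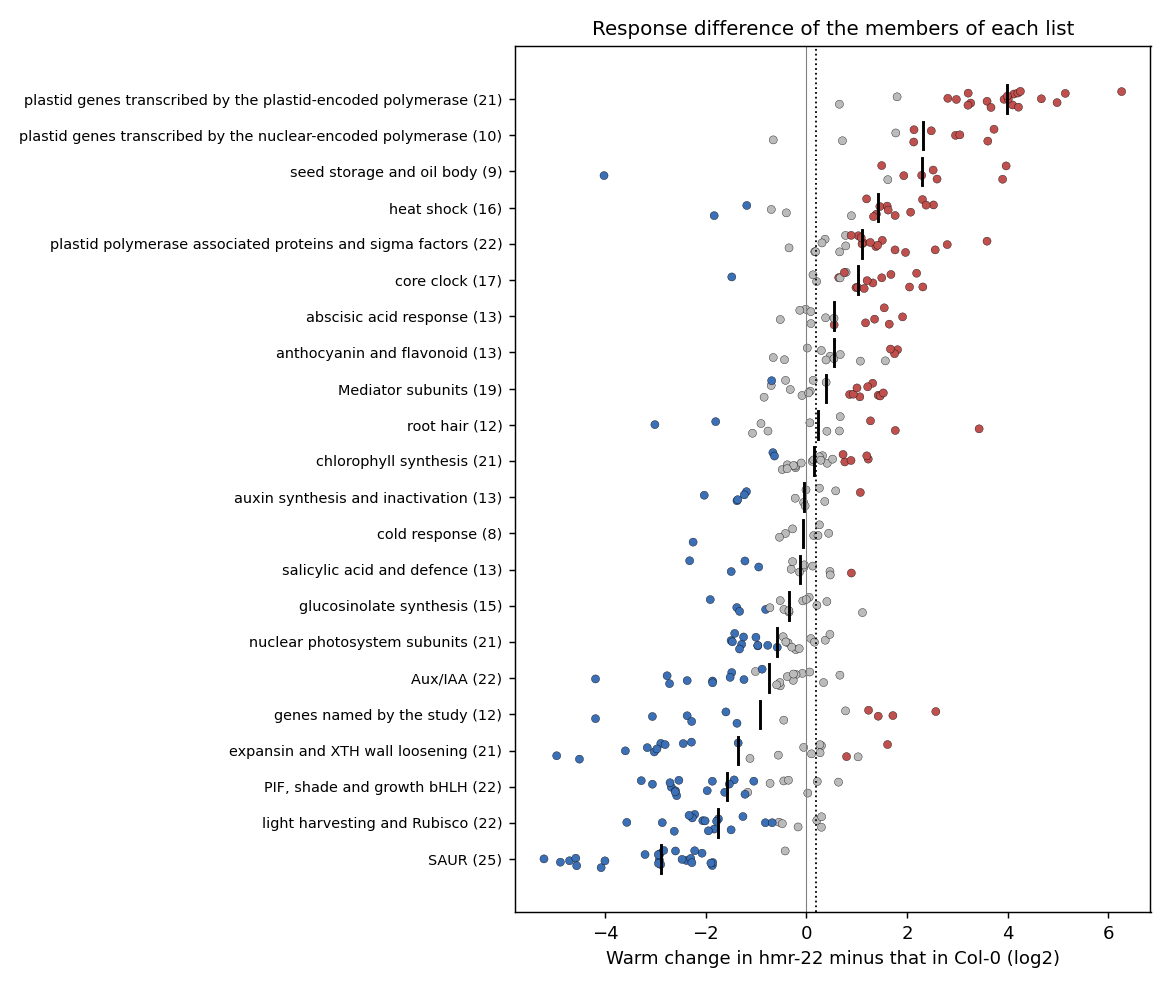
Each point is a tested member of a gene list, placed by its response difference (log2, hmr-22 minus Col-0) and colored red where called higher, blue where called lower, and gray where not called, with black bars at list medians and a dotted line at the median of all genes. SAUR genes (median -2.90) lie at one end and PEP-transcribed plastid genes (median 3.99) at the other.

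Genes of the core clock had a higher response in 12 of 17 (70.6%, against 23.3% over all genes) and a lower one in 1 (median 1.02). Many are long (median 2667 nt), and after adjustment for length, 8 were higher. TOC1 (AT5G61380), an evening repressor of the clock, had 12.8, 14.97, 13.1, and 11.6 in Col-0 at 20°C and 6.79, 7.23, 7.83, and 8.53 at 27°C. In hmr-22, TOC1 had 15.6, 24.1, 14.5, and 20.3 at 20°C and 47.3, 43.9, 44.6, and 42.8 at 27°C. All warm libraries were below all cool ones in Col-0 (change -0.77, but -0.27 without scaling) and above them in hmr-22, with a difference of 2.05 (SE 0.21, adjusted p = 1.43e-06). PRR5 (AT5G24470), a related repressor, had 4.13 to 7.898 and 2.16 to 3.51 in Col-0 and 3.24 to 6.55 and 8.49 to 13.9 in hmr-22, and its difference was 2.31 (SE 0.33, adjusted p = 3.25e-05). LHY (AT1G01060), a morning factor, had 3.71, 3.79, 3.91, and 5.21 in Col-0 at 20°C, where all hmr-22 libraries were lower, at 0.791, 1.27, 0.169, and 0.769. At 27°C, LHY had 6.195, 5.09, 4.19, and 3.297 in Col-0 and 3.299, 3.89, 5.47, and 4.93 in hmr-22, and its difference was 2.19 (SE 0.43, adjusted p = 0.00071). FKF1 (1.68, SE 0.34), a blue light receptor of flowering time, was also higher. CHE (AT5G08330), which represses the morning factor CCA1, was the lower member (-1.48, SE 0.197), with 8.13 to 9.74 and 10.3 to 13.4 in Col-0 and 62.1 to 83.5 and 25.7 to 37.4 in hmr-22. Seedlings were in continuous light, and the labels give no harvest hour relative to a light cycle. LHY holds a G-box 80 bases before its start, as 5 of the 17 clock windows do, and its promoter is shown beside that of PER1, a seed gene with a large higher response, to set 2 genes with the G-box and a higher response against IAA19 and BEE1.
LHY, chr1:37872-38121, minus strand: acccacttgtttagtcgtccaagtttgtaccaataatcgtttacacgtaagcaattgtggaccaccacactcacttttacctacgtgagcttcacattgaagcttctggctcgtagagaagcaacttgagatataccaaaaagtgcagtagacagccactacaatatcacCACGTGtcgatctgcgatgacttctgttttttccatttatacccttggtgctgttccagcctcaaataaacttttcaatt
PER1, chr1:17780179-17780428, plus strand: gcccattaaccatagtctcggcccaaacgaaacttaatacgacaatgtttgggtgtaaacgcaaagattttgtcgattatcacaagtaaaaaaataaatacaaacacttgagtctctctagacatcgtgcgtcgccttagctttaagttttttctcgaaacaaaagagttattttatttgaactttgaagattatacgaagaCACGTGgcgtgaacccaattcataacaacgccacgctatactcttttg
In PER1, the G-box begins 48 bases before the start.

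Heat shock genes had a higher response in 11 of 16 tested and a lower one in 2 (68.75% and 12.5%, against 23.3% and 13.7% over all genes). Their median was 1.42, with the same counts after adjustment for length. They rose with warmth in Col-0 in 10 and in hmr-22 in 13 cases. HSP70 (AT3G12580), a cytosolic chaperone, had 4.37, 4.92, 4.47, and 4.89 in Col-0 at 20°C and 37.8, 28.4, 75.8, and 32.4 at 27°C. In hmr-22, HSP70 had 0.805, 1.45, 1.72, and 0.139 at 20°C and 55.7, 45.4, 38.8, and 38.1 at 27°C. The genotypes overlapped in warmth and hmr-22 was lower at 20°C, which gave a difference of 2.31 (SE 0.53, adjusted p = 0.00241). With voom on the recovered fragments, it was 0.70 (adjusted p = 0.231). HSP70T-2 (2.52, SE 0.47), DREB2A (2.38, SE 0.59), a transcription factor of heat and drought, and AT1G07400 (2.07, SE 0.45), a small heat shock protein, were also higher. The 2 lower members were ROF2 (-1.83, SE 0.38), a co-chaperone, and HSP17.6II (-1.19, SE 0.304), of the peroxisome. ROF2 (AT5G48570) had 0.814 to 0.913 and 6.75 to 15.6 in Col-0, but was listed at 0 in 3 of 4 hmr-22 libraries at 20°C and had 0.183 to 0.604 at 27°C.

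Seed and oil body genes had a higher response in 7 of 9 tested of 18 listed, and a lower one in 1 (median 2.29), but the higher count was 4 to 8 in other settings. OLEO2 (AT5G40420), which coats oil bodies in seeds, had 0.182, 0.757, 0.635, and 0.211 in Col-0 at 20°C and 1.07, 0.7704, 0.544, and 0.607 at 27°C. In hmr-22, OLEO2 had 0, 1.17, 3.43, and 1.71 at 20°C and 20.7, 44.4, 32.8, and 20.8 at 27°C. Only hmr-22 in warmth stood apart, with a difference of 3.897 (SE 0.79, adjusted p = 0.00092). PER1 (AT1G48130), a seed peroxiredoxin, had 0.238, 0.709, 0.665, and 0.0738 and 2.21, 2.32, 1.31, and 1.59 in Col-0. In hmr-22, PER1 was listed at 0 in 3 of 4 libraries at 20°C and had 14.3, 20.1, 16.8, and 15.1 at 27°C, with a difference of 3.97 (SE 0.500) that depends on the added 0.25. TIP3-1 (AT1G73190), a vacuolar water channel of seeds, had 2.58, 0.115, 0.245, and 0.446 in hmr-22 at 20°C and 10.7, 33.03, 19.8, and 7.19 at 27°C, against 0.0332 to 0.509 and 0.107 to 0.545 in Col-0 (difference 4.32, SE 0.78, adjusted p = 0.000317). The lower member was S3OLEO (AT5G51210), another oleosin, with 13.004, 7.43, 7.91, and 10.3 in hmr-22 at 20°C and 0.223, 0.619, 0.464, and 0 at 27°C, against 0.0548 to 0.153 and 0.0366 to 0.0845 in Col-0 (difference -4.02, SE 0.44, adjusted p = 2.86e-06). S3OLEO passed the expression filter only through cool hmr-22, so that a lower response was built into its selection. Defining storage protein genes stayed near 0: over the 16 libraries, the highest scaled FPKM was 0.458 for CRA1, 0.226 for CRC, 0.193 for SESA1, and 1.68 for SESA4, and OLEO1, another oleosin, had 0.753 to 1.77 in warm hmr-22. The summed scaled FPKM of the 6 seed markers, 21.9 to 45.6 in warm hmr-22 and 0.561 to 1.15 in warm Col-0, is therefore almost all OLEO2. Of 13 genes of the abscisic acid response, 6 were higher (46.2%, against 23.3% over all genes) and 0 lower. Among them were CYP707A1 (1.91), which degrades the hormone, HAB1 (1.65), a phosphatase of its signaling, and RD26 (1.35), a transcription factor it induces. After adjustment for length, 4 were higher, and the median of the list went from 0.55 to 0.12.

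**Figure D5:**
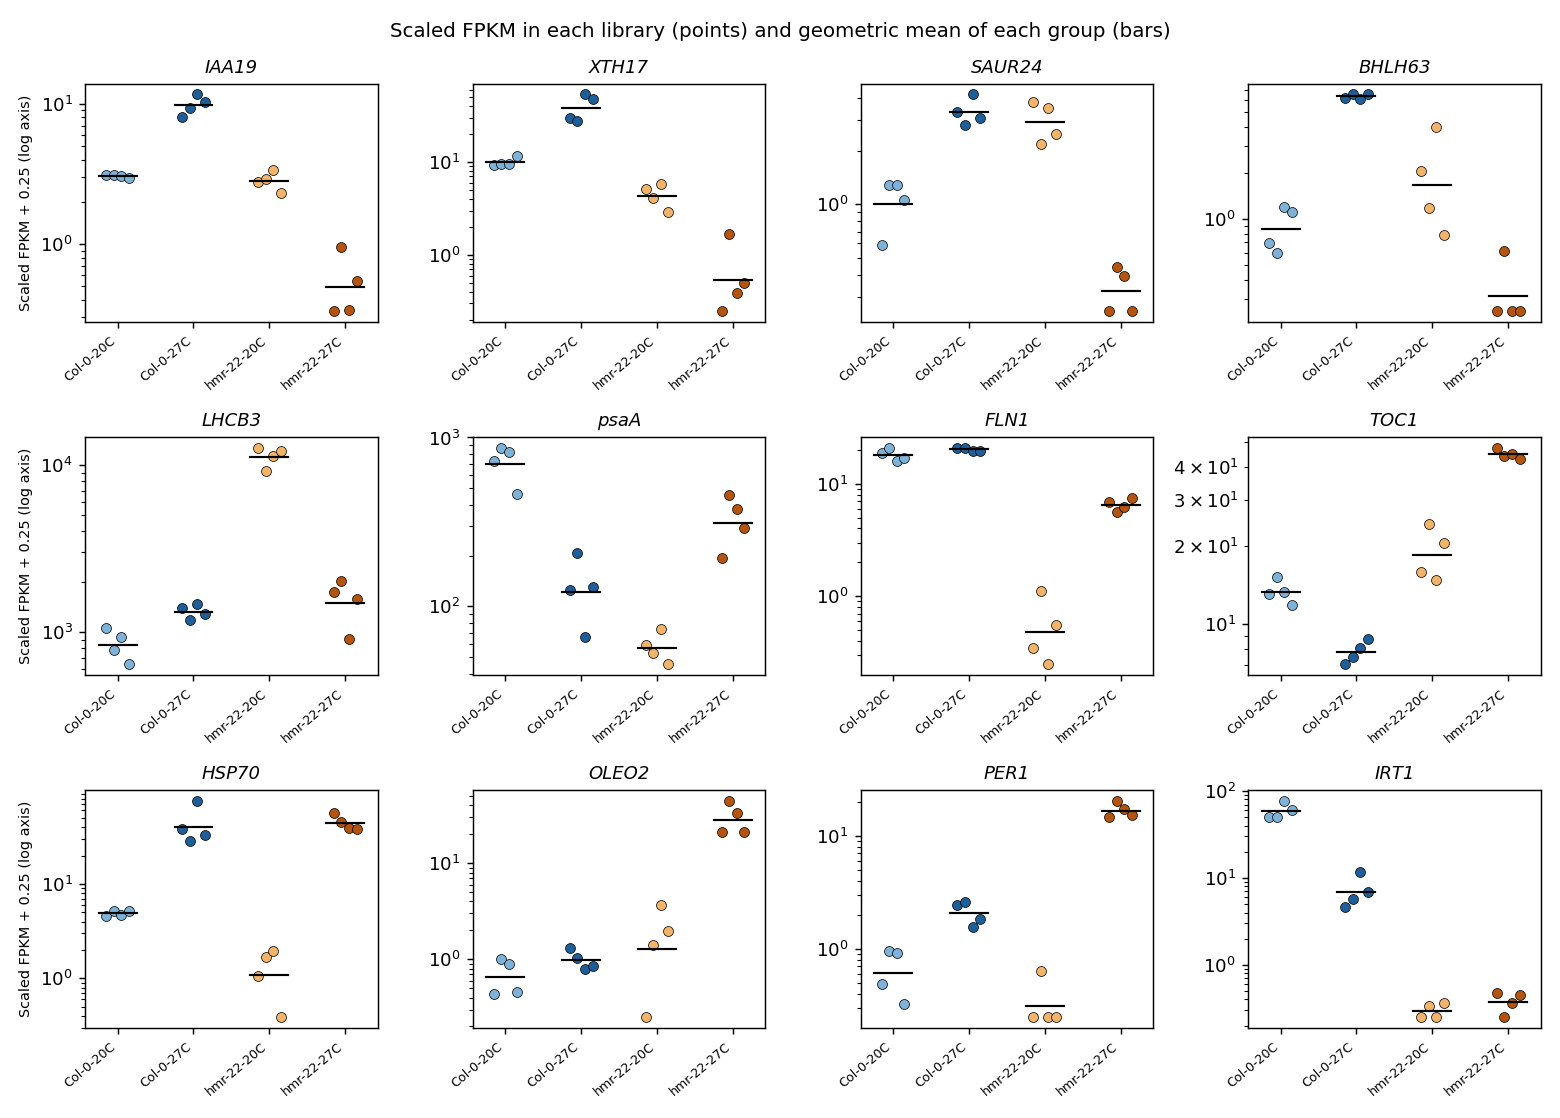
Each panel shows 1 gene and each point 1 library, as scaled FPKM + 0.25 on a log axis, with bars at the geometric mean of each group of 4. IAA19, XTH17, SAUR24, and BHLH63 rise in Col-0 and fall in hmr-22, TOC1 does the reverse, and OLEO2 and PER1 are highest in warm hmr-22.

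Most genes of root hairs and of anthocyanin fell with warmth in Col-0 and were below Col-0 in hmr-22 at both temperatures. Of 12 root hair genes, 11 fell in Col-0 and 8 in hmr-22, and the response was higher in 3 (IRT1, PRP1, and MRH6) and lower in 2 (RHS13 -3.01 and EXPA7 -1.803), or in 7 with voom on the recovered fragments. The shares of 25% higher and 16.7% lower are near the 23.3% and 13.7% over all genes. Of all genes tested, 11.6% fell in Col-0 and 22.3% in hmr-22. IRT1 (AT4G19690), the iron transporter of the root epidermis, had 49.5, 49.8, 76.995, and 60.5 in Col-0 at 20°C and 4.41, 5.51, 11.5, and 6.58 at 27°C, but 0 to 0.112 and 0 to 0.219 in hmr-22. Its difference of 3.43 (SE 0.39, adjusted p = 3.83e-06) thus came from the fall in Col-0 alone. PRP1 had 0 to 0.89 in hmr-22 at 20°C and 0 in every library at 27°C, so that no further fall could be seen. In the fit of all 32 libraries, MRH6 changed by 0 in hmr-22 and by -1.35 in Col-0. A change of exactly 0 is what a gene without signal in hmr-22 gives, so that it is no measured lack of response. The summed root markers given above share IRT1 and EXPA7 with this list, and IRT1 makes up most of the sum in cool Col-0, so that they are no separate measure of it. Of 13 anthocyanin and flavonoid genes, 11 fell in Col-0 and 11 were below Col-0 in hmr-22 at 27°C. They were higher in 3 (F3PH 1.81, LDOX 1.75, and UF3GT 1.67), a share of 23.1% against 23.3% over all genes. LDOX (AT4G22880), a late enzyme of anthocyanin synthesis, had 16.8, 16.2, 5.37, and 10.1 and 6.26, 3.42, 3.39, and 2.04 in Col-0, and was listed at 0 in all hmr-22 libraries at 20°C and in 3 of 4 at 27°C, so that its call came from Col-0.

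Glucosinolate synthesis genes were lower in 4 of 15 (MYB51 -1.91, BCAT4 -1.38, MYB28 -1.33, and CYP79F2 -0.81), or 26.7% against 13.7% over all genes. The lower count was 3 to 9 in other settings. All 15 tested were below Col-0 at 27°C, against 36.9% of all genes. Genes of salicylic acid and defence were lower in 4 of 13 (WRKY53 -2.32, ICS1 -1.49, EDS5 -1.22, and FMO1 -0.95), or 30.8% against 13.7% over all genes. The lower count was 2 to 5 in other settings. ICS1 makes and EDS5 exports a precursor of the hormone. FMO1 lost significance in 10 of the 24 other settings that tested it (adjusted p up to 0.12). WRKY53 and FMO1 passed the expression filter only through warm Col-0, so that a lower response was built into their selection. In this list, 1 gene was higher (NPR1 0.89, 0.47 and no longer called after adjustment for length), or 7.69% against 23.3% over all genes. Among 8 cold response genes, COR413IM1 (-2.25), a plastid membrane protein, was the called member, a share of 12.5% lower against 13.7% over all genes. Of 56 mitochondrial genes tested, 21 were higher (37.5%, against 23.3% over all genes) and 2 lower (3.57%, against 13.7%), with a median of 1.14. After adjustment for length, 31 were higher and 1 lower (median 1.71).

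The response of hmr-22 was also set against those of pif4-2 and med14-2, mutants of PIF4 and MED14, in a fit of all 32 libraries (19937 genes), a comparison added after the data were seen. It was higher than in pif4-2 for 28.9% of genes and lower for 17.8%, and higher than in med14-2 for 29.4% and lower for 15.9%. These and the values below come from 1 scaling and were not adjusted for length. Nuclear genes took 55.9% of the fragments in replicate 1 of med14-2 at 27°C, against 91.5 to 95.8% in its other replicates. In pif4-2 at 20°C, replicate 1 had 68.4%, against 80.3 to 85.95% in the others. No fit was run without these libraries. SAUR genes had median warm changes of 1.51 in Col-0, 0.601 in pif4-2, 0.07 in med14-2, and -1.45 in hmr-22, and hmr-22 was below pif4-2 for 18 and below med14-2 for 16 of 25. IAA19 changed by -0.16 in pif4-2 and 0.17 in med14-2, and hmr-22 differed from them by -2.52 (adjusted p = 9.79e-07) and -2.85 (adjusted p = 1.41e-07). YUC8 changed by -1.07 and -0.87, and hmr-22 did not differ past the threshold from either (adjusted p = 0.306 and 0.624). PEP-transcribed genes had median warm changes of -3.01 in pif4-2 and -2.01 in med14-2, and hmr-22 was above pif4-2 for 18 and above med14-2 for 17 of 21. For light harvesting, the response of hmr-22 was lower than that of pif4-2 in 16 of 22 and higher in 0, and lower than that of med14-2 in 4 and higher in 5. The median warm change of this list was -0.11 in pif4-2 and -1.25 in med14-2. TOC1 changed by -1.08 in pif4-2 and -0.34 in med14-2, and its response in hmr-22 was higher than in either, by 2.38 and 1.64.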

How the data were processed

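The authors mapped paired-end reads of stranded poly(A) libraries to TAIR10 with CLC Genomics Workbench 21 and deposited 1 table of FPKM values for 27655 genes. Seedling pools were biological replicates by the labels. Per-library depth was recovered from FPKM and exon length, with 99.2 to 99.3% of values within 0.05 of whole fragments.

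Genes under 0.5 FPKM in more than 12 of the 16 libraries were left out. A gene high in only 1 group can pass through that group, and the direction of its difference is then partly built in. FPKM values were divided by trimmed mean of M value factors (30% of M and 5% of A trimmed) and log2-transformed after adding 0.25. limma 3.58.1 (R 4.3.3; empirical Bayes with trend, robust) was fitted to 4 group means, with Benjamini-Hochberg adjustment within each contrast, and was tested on simulated data. Figures and promoter windows used Python.

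Members and gene lists were chosen with earlier results of these data known, so lists are described by counts and medians. Named genes were 12 of the study, the 12 largest differences past the study's thresholds in each direction with a symbol and no overlap of the genotypes at one temperature, up to 4 called members per list, the 5 largest in each class of opposite change, and members of counts of 5 or fewer. Alternatives were other scalings, pseudocounts, filters, a replicate block, library weights, voom on recovered fragments, all 32 libraries, each library left out, and adjustment for exon length (lowess, span 0.5). Same-number replicates did not deviate together (mean correlation 0.012), so no block was used.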

Additional observations from a re-analysis of the deposited data

Results flagged for a closer look

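A response that differs between the genotypes is what every call above states: 4471 genes had a higher and 2624 a lower response in hmr-22 than in Col-0. Against pif4-2, 5759 genes were higher and 3555 lower, and against med14-2, 5868 were higher and 3163 lower.

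In 196 groups of 4 libraries tested, over 40 genes and 9 library measures, 16 held a library that lay far from the other 3. Chance alone gives about 1 in 20 where no values sit at 0. A group with 0 in 3 libraries is always flagged, however small the other value. That holds for SCPL31, psbZ, ROF2, and PER1 in cool hmr-22 and for BHLH63 and LDOX in warm hmr-22. The count of 16 therefore cannot be set against that rate. All values are scaled FPKM of genes. In hmr-22 at 20°C, replicate 2, SCPL31 had 0.0584 (0 in the others), EXPA8 had 80.7 (106 to 110.0 in the others), psbZ had 0.718 (0 in the others), ROF2 had 0.0614 (0 in the others), and PER1 had 0.384 (0 in the others). In Col-0 at 27°C, replicate 3, GASA6 had 84.0 (62.2 to 64.9 in the others), and ROF2 had 15.6 (6.75 to 7.77 in the others). In hmr-22 at 27°C, replicate 2, BHLH63 had 0.362 (0 in the others), and XTH17 had 1.43 (0 to 0.243 in the others). In Col-0 at 20°C, replicate 4, XTH17 had 11.4 (9.06 to 9.35 in the others), and LHY had 5.21 (3.71 to 3.91 in the others). In hmr-22 at 27°C, replicate 3, psbZ had 37.7 (4.07 to 9.08 in the others), and NDHI had 30.02 (8.23 to 8.95 in the others). In hmr-22 at 27°C, replicate 4, ATPB had 194 (122 to 129.7 in the others), and LDOX had 0.144 (0 in the others). In hmr-22 at 20°C, replicate 1, TIP3-1 had 2.58 (0.115 to 0.446 in the others).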

How the results depend on the processing

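The counts depended on how libraries were scaled. Higher responses made up 63.0% of the calls, but 70.2% without scaling (4516 higher and 1913 lower), 53.0% with median ratios (3603 and 3195), 53.2% with quantile normalization (3604 and 3172), 52.8% with voom on recovered fragments (3973 and 3551), and 54.1% after adjustment for length. Leaving out replicate 3 of Col-0 at 20°C or any library of Col-0 at 27°C also moved the reference library of the trimmed mean, and the share was then 50.9 to 52.4%. With 1 library left out at a time, there were 2985 to 5147 higher and 2234 to 2960 lower responses, and at the study's thresholds 666 to 1815 and 622 to 1086. The higher count at the study's thresholds was 708 without replicate 3 of Col-0 at 20°C, and 674, 666, 680, and 697 without replicates 1 to 4 of Col-0 at 27°C. The study's thresholds themselves left 1325 higher and 834 lower genes, against 2295 and 1295 with all 32 libraries and 520 lower without scaling. With all 32 libraries, the filter (19937 genes tested), the scaling factors, and the spread all changed, so that the rise is not due to the spread alone. The pseudocounts, filters, and library weights kept all 4 counts within 1.5 times. With a replicate block, 4352 were higher and 2549 lower, of which 4267 and 2481 were in the original calls. Of 114 named genes, 84 kept their direction and side of the threshold in all of the 29 settings that gave them a value. Of 3257 values, 123 lost significance, 5 gained it, and 1 reversed, PRP1 with voom (-0.030 against 1.76). Voom could not be run on organelle genes. The median SD (log2) between replicates was 0.443 at 20°C and 0.306 at 27°C in hmr-22, against 0.15 and 0.1398 in Col-0. The fit used 1 variance per gene over all groups, so that warm changes had the same SE in both genotypes (0.268 for IAA19 in each). Where a gene spreads more in hmr-22, this SE is too wide for Col-0 and too narrow for hmr-22. That bears on the counts called in 1 genotype alone.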
